A study of Drosophila melanogaster with 6 samples.

Results

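Delta is a membrane-bound ligand of the Notch receptor, and the genes described here with it encode proteins that act on the ligand, on the receptor or on its nuclear output. They were Delta, neur, fng, O-fut1, dx, numb, Psn, H, gro and CtBP, chosen by gene symbol, 10 of 11982 genes with a named probe set, and every probe set annotated to 1 of them was kept. This gave 13 probe sets of 18769 that were not array controls, with 2 each for Delta, H and CtBP. Gene expression was measured in eye-antennal imaginal discs, larval epithelia from which the eye, antenna and much of the head develop, from wandering third-instar Drosophila melanogaster grown at 25 °C. Tumour discs carried ey-Gal4, GS(2)88A8 and UAS-Dl over a wild-type chromosome, and control discs carried GS(2)88A8 and UAS-Dl in the same state without the driver, both in the w1118 strain. Each genotype had 3 biological replicates, 1 array each and 6 arrays in all, and the design text describes each replicate as a pool of disc pairs, whose number can be read as 300. The ey-Gal4 driver acts in the developing eye, UAS-Dl is a Delta transgene that responds to it, and the GS insertion has been described as placing lola and psq under Gal4 control. Control discs therefore carried the transgene and the insertion as well, and no group carried the driver alone. Because each sample was a pool of whole discs, a change in the number of cells of a type and a change in RNA per cell cannot be told apart.

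Delta on a sending cell binds Notch on its neighbour, Notch is then cut in steps that end with the gamma-secretase complex, and its freed intracellular part enters the nucleus. There it joins the DNA-binding protein Su(H), which otherwise holds target genes off with corepressors, and turns on genes of the Enhancer of split and Bearded families. In the eye disc the pathway drives growth from the dorsoventral boundary and later spaces the photoreceptor founders by lateral inhibition. Notch itself, its other ligand Ser and Su(H) were not analysed here.

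The values are log2 intensities, on which a difference of 1 is a doubling, and they ran from a floor of 2.17 up to 15.79. A probe set was tested when it reached 4 on at least 3 arrays, and all 13 passed. In each genotype the replicate 1 array lay apart from the other arrays, with the 18S rRNA control at 10.33 to 12.48 against 5.50 to 7.19 on the other 4 arrays. The first principal component, which separated them, held 67.1% of the variance. Same-numbered arrays deviated together from their genotype means (correlations of 0.794, 0.467 and 0.723), so 2 limma fits are given, one without a block (unpaired) and one with the replicate number as a block (paired). The labels do not say what a replicate number marks. Tumour replicate 2 also correlated with control replicate 3 (0.668), and tumour replicate 3 with control replicate 2 (0.473). These values therefore do not settle how replicates 2 and 3 match between genotypes. Of 9 tested eye and antennal disc markers, mean levels over the list lay from 10.74 to 11.16 in tumour and from 10.25 to 10.78 in control, so the tissue's defining genes were present. The fat body genes Lsp2, Fbp1 and Fbp2 read 6.51, 5.52 and 5.55 on control replicate 3 and at most 3.24 on the other 5 arrays.

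None of the 13 probe sets passed an adjusted p of 0.05 in the unpaired fit, where 0.515% of all 7962 tested probe sets did, and none passed in the paired fit, where 9.17% did. At an unadjusted p under 0.05 the unpaired fit held 0 of the 13 (8.55% of all) and the paired fit 5 (29.6% of all). Differences, tumour minus control, ran from -0.0017 to 0.33 with a median of 0.13, against a median of 0.051 over all tested probe sets. Of the 13, 12 were above 0, as were 61.5% of all tested probe sets; 8 of the 13 were above 0 without control replicate 1, and 10 without tumour replicate 3 or with replicates 2 and 3 alone. With replicates 2 and 3 alone, again 0 passed, and the median was 0.082 against 0.037 over all. The widest 95% interval of the unpaired fit reached a 1.78-fold higher level in tumour, for a Delta probe set, and that of the paired fit 1.53-fold, for the same probe set.

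**Figure D1:**
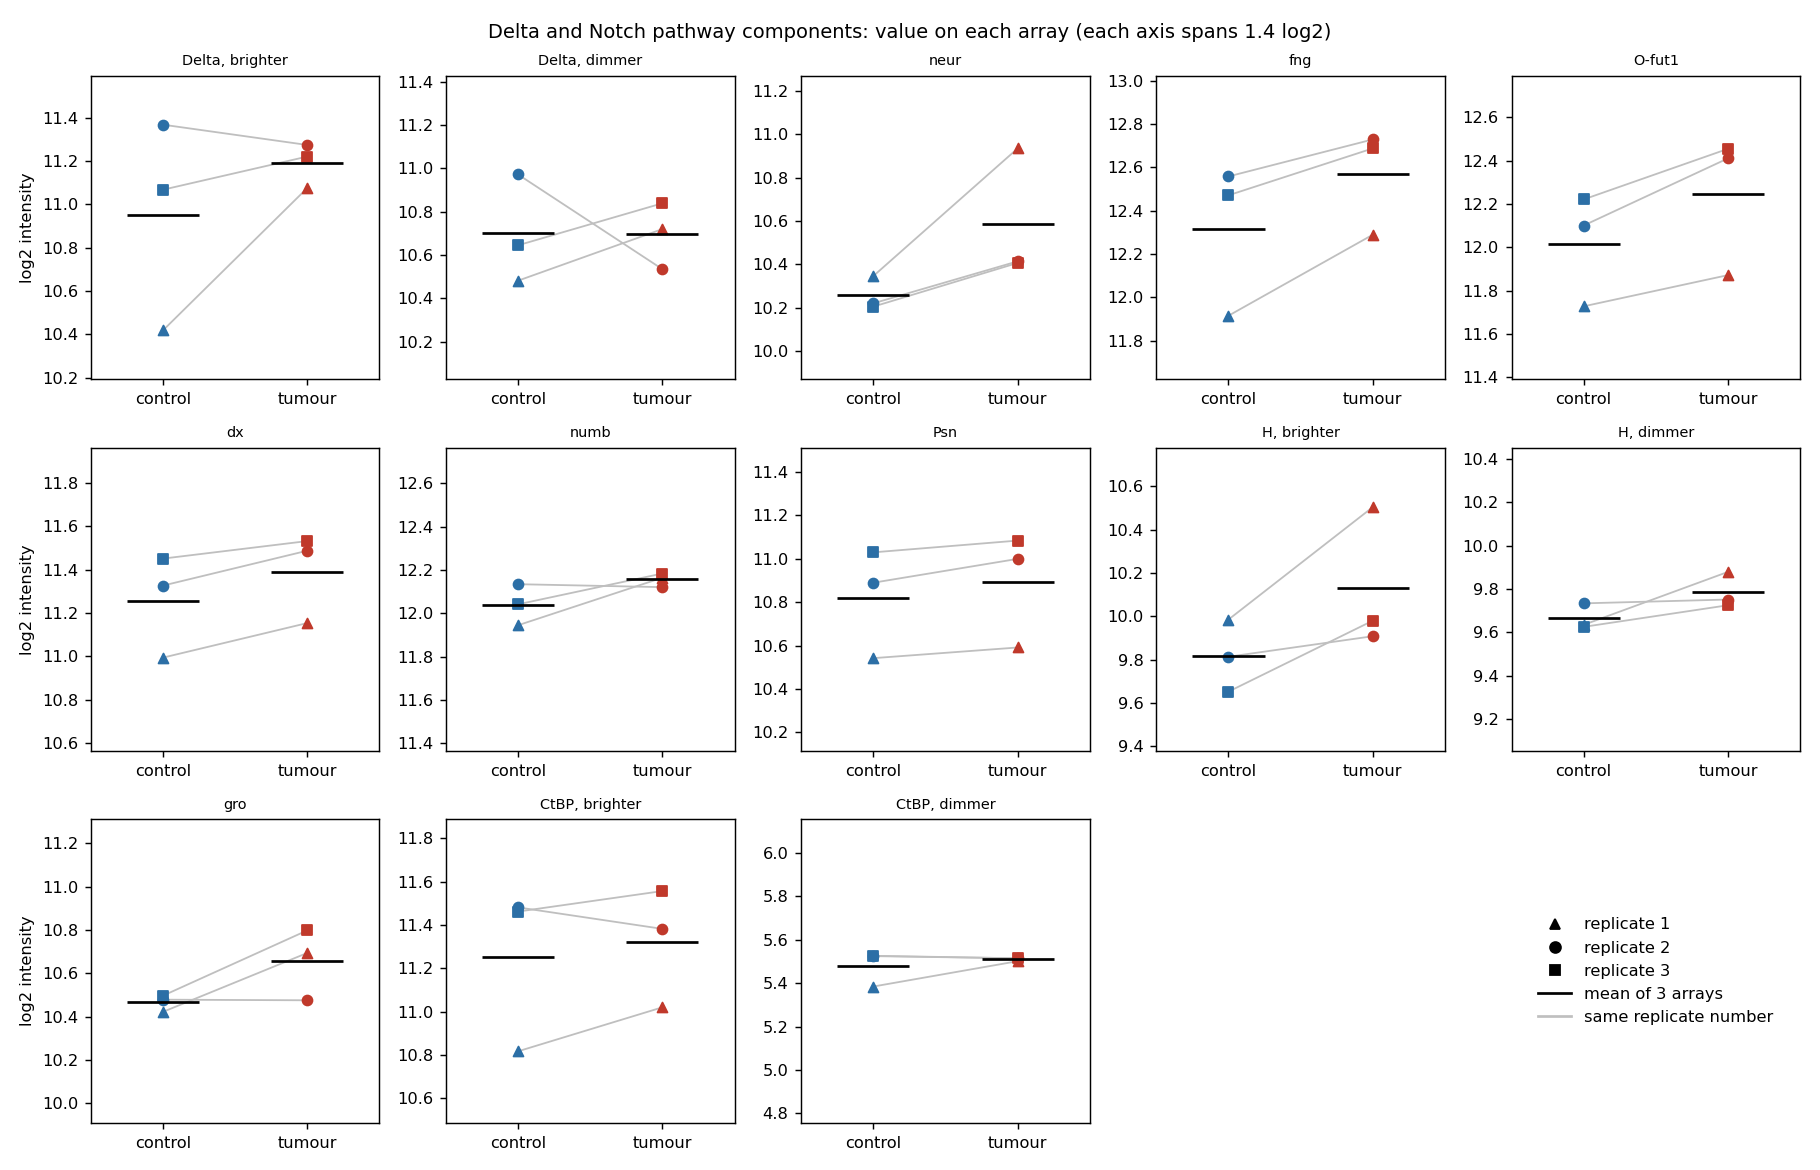
Log2 intensity of each of the 13 probe sets on the 6 arrays, with controls in blue and tumours in red, a marker shape for each replicate number, grey lines between arrays of the same number and black bars at the mean of 3. Every panel spans the same range of log2 units, so that slopes can be compared; neur is the probe set whose tumour values all lie above its control values.

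Delta, the ligand that the transgene encodes, was read by 2 probe sets. The brighter (1634398_a_at) gave 11.08, 11.27 and 11.22 in tumour replicates 1 to 3 and 10.42, 11.37 and 11.07 in controls. Control replicate 1 was the lowest array and control replicate 2 the highest, so the genotypes overlapped and all tumour values lay between these controls. The means were 11.19 ± 0.10 and 10.95 ± 0.49 (SD, n = 3), a difference of 0.24 with a 95% interval from -0.35 to 0.83 in the unpaired fit (adjusted p = 0.98) and from -0.14 to 0.62 in the paired fit (adjusted p = 0.33). Without control replicate 1 the difference was -0.028, where the median of all tested probe sets was -0.075. With replicates 2 and 3 alone it was 0.030, where that median was 0.037.

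The dimmer Delta probe set (1634659_at) gave 10.72, 10.54 and 10.84 in tumour and 10.48, 10.97 and 10.65 in control. Its tumour mean was 10.70 ± 0.15 and its control mean 10.70 ± 0.25 (SD, n = 3), with a 95% interval of the difference from -0.38 to 0.37 in both fits. In the replicate 2 pair the tumour array was lower by both probe sets, at -0.094 for the brighter and -0.44 for the dimmer. In the pairs of replicates 1 and 3 it was higher by both, at 0.66 and 0.24 in the former and 0.15 and 0.19 in the latter. Across the 6 arrays the probe sets correlated at 0.67. Whether either probe set covers the transcript of the transgene is not known here.

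The gene neur encodes a ubiquitin ligase that sends Delta into endocytosis in the signalling cell. It gave 10.93, 10.41 and 10.41 in tumour against 10.35, 10.22 and 10.20 in control. All 3 tumour arrays lay above all 3 controls, which held for 8.64% of all tested probe sets and for no other of the 13. The gap between the groups was narrow, since the lower tumour arrays were near control replicate 1, and tumour replicate 1 stood above the other tumours. The difference was 0.33 (95% interval -0.069 to 0.73 unpaired, adjusted p = 0.73; 0.081 to 0.57 paired, adjusted p = 0.10). In the same-number pairs it was 0.59, 0.19 and 0.20. With all arrays this was the largest difference of the 13. Without tumour replicate 1 it was 0.15, level with the median of all tested probe sets (0.15) and below the values of O-fut1 (0.42) and fng (0.39). With replicates 2 and 3 alone the neur difference was 0.20 (adjusted p = 0.088), where that median was 0.037. Without control replicate 1 it was 0.37, where that median was -0.075.

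The receptor is modified before it meets its ligand. O-fut1 adds O-fucose to the EGF repeats of Notch, and fng extends that sugar and so favours Delta over Serrate as the activating ligand. The fng probe set gave 12.29, 12.73 and 12.69 in tumour and 11.92, 12.56 and 12.47 in control. Replicate 1 was the lowest array of each genotype, and tumour replicate 1 fell below 2 controls, so the groups overlapped. Within pairs tumour was higher by 0.37, 0.17 and 0.22. The difference was 0.25 (95% interval -0.26 to 0.76 unpaired and 0.11 to 0.39 paired, adjusted p = 0.055 paired). Without control replicate 1 it was 0.054, against a median of -0.075 over all tested probe sets.

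O-fut1 gave 11.87, 12.41 and 12.45 in tumour and 11.73, 12.10 and 12.22 in control. Again the replicate 1 arrays were lowest and the groups overlapped through tumour replicate 1 alone, while each pair had the tumour array higher, by 0.14, 0.31 and 0.23. The difference of 0.23 had a 95% interval from -0.27 to 0.73 in the unpaired fit and from 0.10 to 0.36 in the paired fit (adjusted p = 0.056). It was 0.085 without control replicate 1, against a median of -0.075 over all tested probe sets. With replicates 2 and 3 alone it was 0.27 for O-fut1 (adjusted p = 0.059) and 0.19 for fng (adjusted p = 0.085). Both fng and O-fut1 thus missed the threshold narrowly in these fits, and by a wide margin in the unpaired fit (adjusted p = 0.94 for fng and 0.95 for O-fut1). Other genes of receptor glycosylation, from the component list described below, were lower in tumour in each pair. They were nac at -0.28, Gmd at -0.098 and rumi at -0.058 (adjusted p = 0.19, 0.33 and 0.53 paired).

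Trafficking and cleavage of the receptor were represented by dx, numb and Psn. The product of dx binds the intracellular part of Notch and steers its endosomal sorting, and its probe set gave 11.15, 11.49 and 11.53 in tumour and 10.99, 11.33 and 11.45 in control. The groups overlapped, the pairs differed by 0.16, 0.16 and 0.081, and the difference was 0.13 (95% interval -0.26 to 0.53 unpaired; 0.017 to 0.25 paired, adjusted p = 0.13). Without control replicate 1 it was 0.0023, against a median of -0.075 over all tested probe sets. The gene numb encodes an inhibitor of Notch that is handed to 1 daughter in asymmetric divisions. It gave 12.16, 12.12 and 12.18 in tumour and 11.95, 12.13 and 12.04 in control, with control replicate 2 inside the tumour range. The tumour arrays of numb spanned little, with an SD of 0.032, and its difference of 0.12 had a 95% interval from -0.034 to 0.27 in the paired fit (adjusted p = 0.25).

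Psn encodes presenilin, the catalytic subunit of gamma-secretase. Its values were 10.59, 11.00 and 11.08 in tumour and 10.54, 10.89 and 11.03 in control, with the replicate 1 array lowest in both genotypes and arrays of the same number at most 0.11 apart. The difference of 0.071 had a 95% interval from -0.38 to 0.52 in the unpaired fit and from -0.049 to 0.19 in the paired fit (adjusted p = 0.35), where its upper bound, a tumour level 1.14-fold that of control, was the lowest of the 13.

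The nuclear members form the repressor complex on Su(H): H (Hairless) binds Su(H) directly and brings in the corepressors gro (Groucho) and CtBP. Groucho is also recruited by the Enhancer of split repressors that Notch turns on. The brighter H probe set (1638568_s_at) gave 10.50, 9.91 and 9.98 in tumour and 9.99, 9.81 and 9.65 in control. Tumour replicate 1 was the highest array, and control replicate 1 lay level with the other tumours. The difference was 0.31 (95% interval -0.14 to 0.77 unpaired and 0.072 to 0.55 paired, adjusted p = 0.11 paired), with pairs at 0.52, 0.095 and 0.33. Without tumour replicate 1 it was 0.13, against a median of 0.15 over all tested probe sets. The dimmer H probe set (1639839_s_at) differed by 0.12 (paired interval -0.057 to 0.30, adjusted p = 0.30), with the same sign in each pair.

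The gro probe set gave 10.69, 10.48 and 10.80 in tumour and 10.42, 10.48 and 10.50 in control. Tumour replicates 1 and 3 lay above all controls and tumour replicate 2 among them, with a difference of 0.19 (paired interval -0.0094 to 0.39, adjusted p = 0.18). CtBP differed by 0.066 on its brighter probe set (1623106_s_at; paired interval -0.12 to 0.25, adjusted p = 0.56), where replicate 1 read 11.02 in tumour and 10.82 in control and the other 4 arrays lay from 11.38 to 11.56. The dimmer CtBP probe set (1623869_at) read 5.38 to 5.53 on all 6 arrays, a difference of 0.032 (paired interval -0.23 to 0.29). The gro, H and brighter CtBP probe sets carry the suffix _s_at, by which the array's maker marks probes that may match transcripts of more than one gene.

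**Figure D2:**
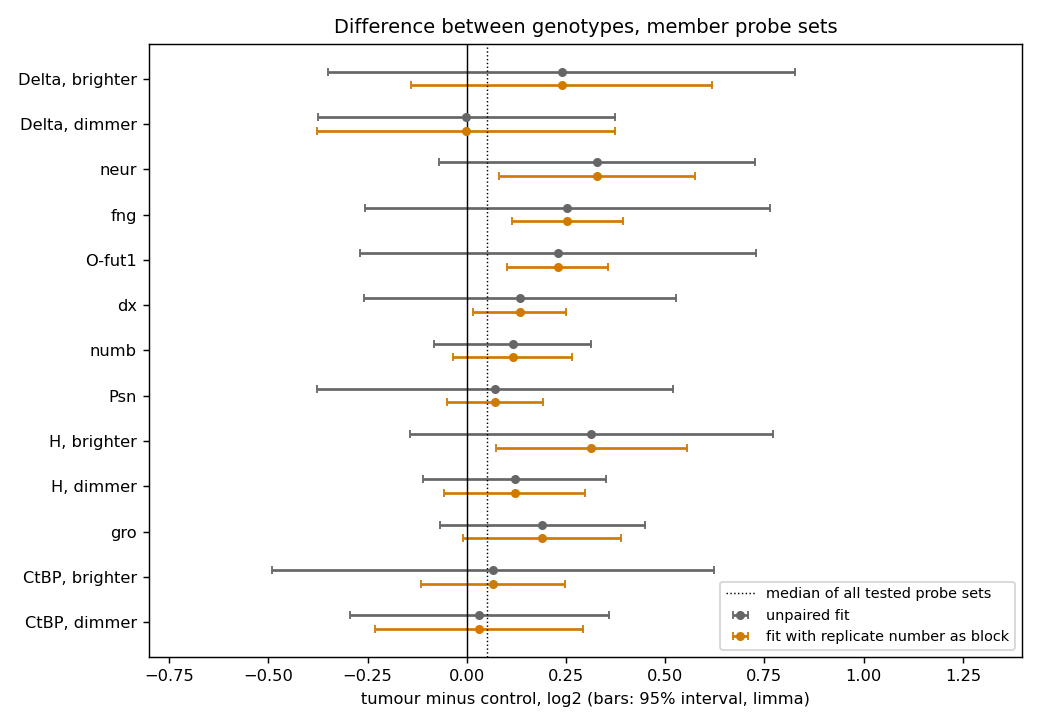
Tumour minus control on the log2 scale for the 13 probe sets, with 95% intervals from the unpaired fit (grey) and the paired fit (orange); the dotted line is the median of all tested probe sets, 0.051. All grey intervals include 0, and the orange intervals of neur, fng, O-fut1, dx and the brighter H probe set lie above it before adjustment over all probe sets.

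In the same-number pairs the tumour array was higher for 13 of 13 probe sets in replicate 1, 7 in replicate 2 and 12 in replicate 3. Of all 7962 tested probe sets it was higher for 4821, 4279 and 4950. Median differences in these pairs were 0.24, 0.018 and 0.15, against 0.071, 0.016 and 0.057 over all tested probe sets. The members' median difference was thus largest with the replicate 1 arrays, which stood apart, and in the replicate 2 pair it was close to that of all probe sets. This did not hold for each member. The replicate 1 pair gave the smallest difference of the 3 pairs for O-fut1 and Psn, and not the largest for dx and gro. The tumour array was higher in all 3 pairs for 7 of the 13 probe sets, against 35.2% of all tested: those of neur, fng, O-fut1, dx, Psn and both of H.

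**Figure D3:**
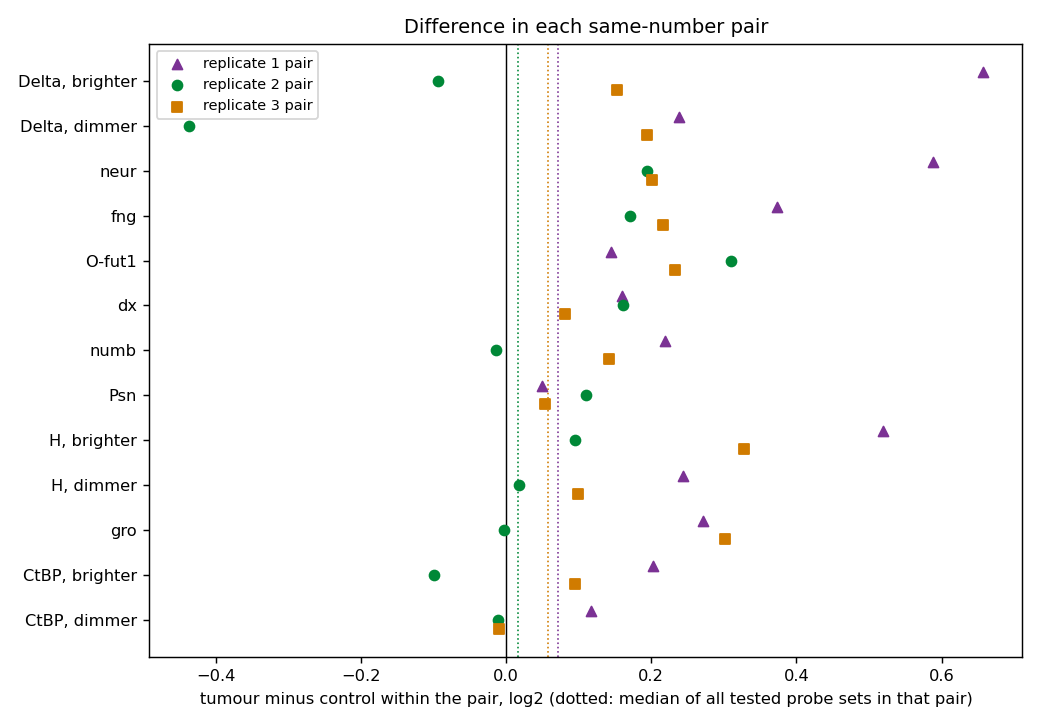
Tumour minus control within each same-number pair, on the log2 scale, for the 13 probe sets; dotted lines mark the median of all tested probe sets in that pair. The replicate 1 pair (purple) is above 0 for all 13, from 0.049 for Psn to 0.66 for the brighter Delta probe set, and the replicate 2 pair (green) reaches down to -0.44 for the dimmer Delta probe set.

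Members also differed in how they behaved on the replicate 1 arrays, a contrast between arrays of 1 genotype. Over all tested probe sets, replicate 1 was lower than the mean of replicates 2 and 3 by a median of 0.31 in tumour (a shift of -0.31) and of 0.36 in control (-0.36). The same shift was -0.56 in tumour and -0.43 in control for O-fut1, -0.42 and -0.60 for fng, -0.45 and -0.42 for Psn, -0.36 and -0.39 for dx, and -0.45 and -0.65 for the brighter CtBP probe set. The opposite held for neur, at 0.52 and 0.13, and the brighter H probe set, at 0.56 and 0.25, which read higher on replicate 1 in both genotypes. The brighter Delta probe set was the most unequal of the 13, at -0.17 in tumour and -0.80 in control. As a description over 6 arrays that share this split, neur and that H probe set correlated at 0.97 and O-fut1 and dx at 0.98, while Psn and the H probe set correlated at -0.63.

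**Figure D4:**
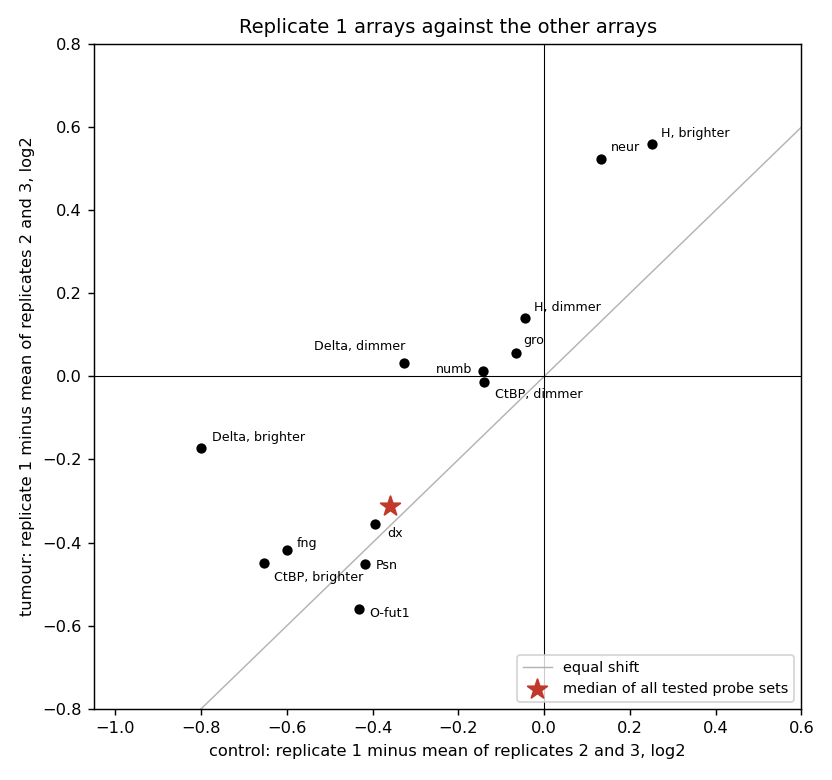
Replicate 1 minus the mean of replicates 2 and 3, in log2 units, in control (horizontal) and tumour (vertical) for the 13 probe sets; the star is the median of all tested probe sets, at -0.36 and -0.31. The neur and brighter H probe sets lie in the upper right, the fng, O-fut1, dx, Psn and brighter CtBP probe sets in the lower left, and the brighter Delta probe set farthest above the line of equal shift.

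The 3 genes whose profile over the 6 arrays was most like the brighter Delta probe set, by Pearson correlation among representative probe sets of all 6447 tested genes, were slim (0.996), l(3)neo38 (0.994) and CG10543 (0.993). Their differences between genotypes were 0.14, 0.19 and 0.47, and control replicate 1 was the lowest array of each.

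Other components of the pathway were taken from a list of 34 genes, each represented by its brightest tested probe set; 27 had a named probe set and 25 were tested. The unpaired fit called none of them (0.512% of all genes), and none of the 10 genes above was called on its representative probe set in either fit. The paired fit called 2 higher, where 4.06% of all genes were, and 0 lower (5.38% of all genes). Tace, which encodes a metalloprotease able to cut the outer part of Notch, rose by 0.91 ± 0.17 (SE, adjusted p = 0.042), from 3.94, 5.78 and 5.97 in control to 5.30, 6.41 and 6.72 in tumour, with control replicate 1 under the level set for testing. The groups overlapped, and with replicates 2 and 3 alone Tace was not called (adjusted p = 0.064). The gene pon, whose product localises Numb in dividing neural precursors, rose by 0.28 ± 0.056 (SE, adjusted p = 0.048) and kept its call with replicates 2 and 3 alone (adjusted p = 0.049). Its values were 10.08, 10.30 and 10.35 in tumour against 9.87, 9.97 and 10.05 in control, without overlap.

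Among components that act beside the genes above, lqf, the epsin needed for Delta endocytosis together with the ubiquitin ligases, was at -0.26 (adjusted p = 0.089 paired) and was called lower with replicates 2 and 3 alone, at -0.33 (adjusted p = 0.046). The metalloprotease gene kuz, which makes the cut before gamma-secretase, was at -0.05 (adjusted p = 0.75 paired), the gamma-secretase subunit gene pen-2 at 0.004 (adjusted p = 0.97 paired) and mam, the coactivator of nuclear Notch, at 0.03 (adjusted p = 0.84 paired). The 25 differences had a median of 0.064, against 0.052 over all tested genes and 0.21 over the 10 genes described above.

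Targets of the pathway came from a list of 25 genes, of which 16 were tested. The unpaired fit called 0 of them (0.512% of all genes) and the paired fit 8, all higher, where 4.06% of all genes were called higher and 5.38% lower. Their median difference was 0.25. Brd, a small protein that blocks Neur, rose by 0.48 (adjusted p = 0.013), and its relative Tom by 0.27 (adjusted p = 0.037). Of the Enhancer of split complex, the bHLH repressor genes E(spl)m3-HLH and E(spl)mdelta-HLH rose by 0.44 and 0.41 (adjusted p = 0.030 and 0.020), E(spl)m7-HLH rose by 0.24 (adjusted p = 0.047), and so did the Bearded-type gene E(spl)m4-BFM, by 0.25 (adjusted p = 0.031). Further calls were upd1, a ligand of JAK/STAT signalling, at 1.28 (adjusted p = 0.011) and the Ets repressor aop at 0.24 (adjusted p = 0.036). The upd1 probe set read low, at 4.77, 5.81 and 5.95 in tumour and 3.44, 4.77 and 4.49 in control. Its control replicate 1 was under the level set for testing, and tumour replicate 1 was level with control replicate 2. E(spl)malpha-BFM was at -0.03 (adjusted p = 0.70 paired) and E(spl)mbeta-HLH at 0.09 (adjusted p = 0.34 paired). Of the 16 differences 13 were above 0, and the lowest were those of ct and E(spl)m5-HLH, both at -0.13 (adjusted p = 0.41 and 0.54 paired). Tumour was lower in each pair for ct, and in the pairs of replicates 2 and 3 for E(spl)m5-HLH. With replicates 2 and 3 alone 7 targets passed, all higher, where 2.98% of all genes were called higher and 4.19% lower, and 6 of these had also passed in the paired fit; eyg was gained (adjusted p = 0.032), and E(spl)m4-BFM and E(spl)m7-HLH were not called (adjusted p = 0.055 and 0.11). Parts of this list were known to move from earlier results of these data, so its count is not independent support.

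All 3 tumour arrays lay above all 3 controls for 5 of the 16 tested targets, against 8.72% of all genes, and 4 of the 8 called targets overlapped between the groups: Tom, aop, E(spl)m4-BFM and E(spl)m7-HLH. For E(spl)mdelta-HLH the tumour arrays read 11.83, 11.85 and 11.95 and the controls 11.47, 11.50 and 11.42, so the groups were apart by more than the range of either. For Brd they read 11.83, 12.20 and 12.10 against 11.33, 11.64 and 11.73, also without overlap. Whether targets and components differ in their response was not tested.

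**Figure D5:**
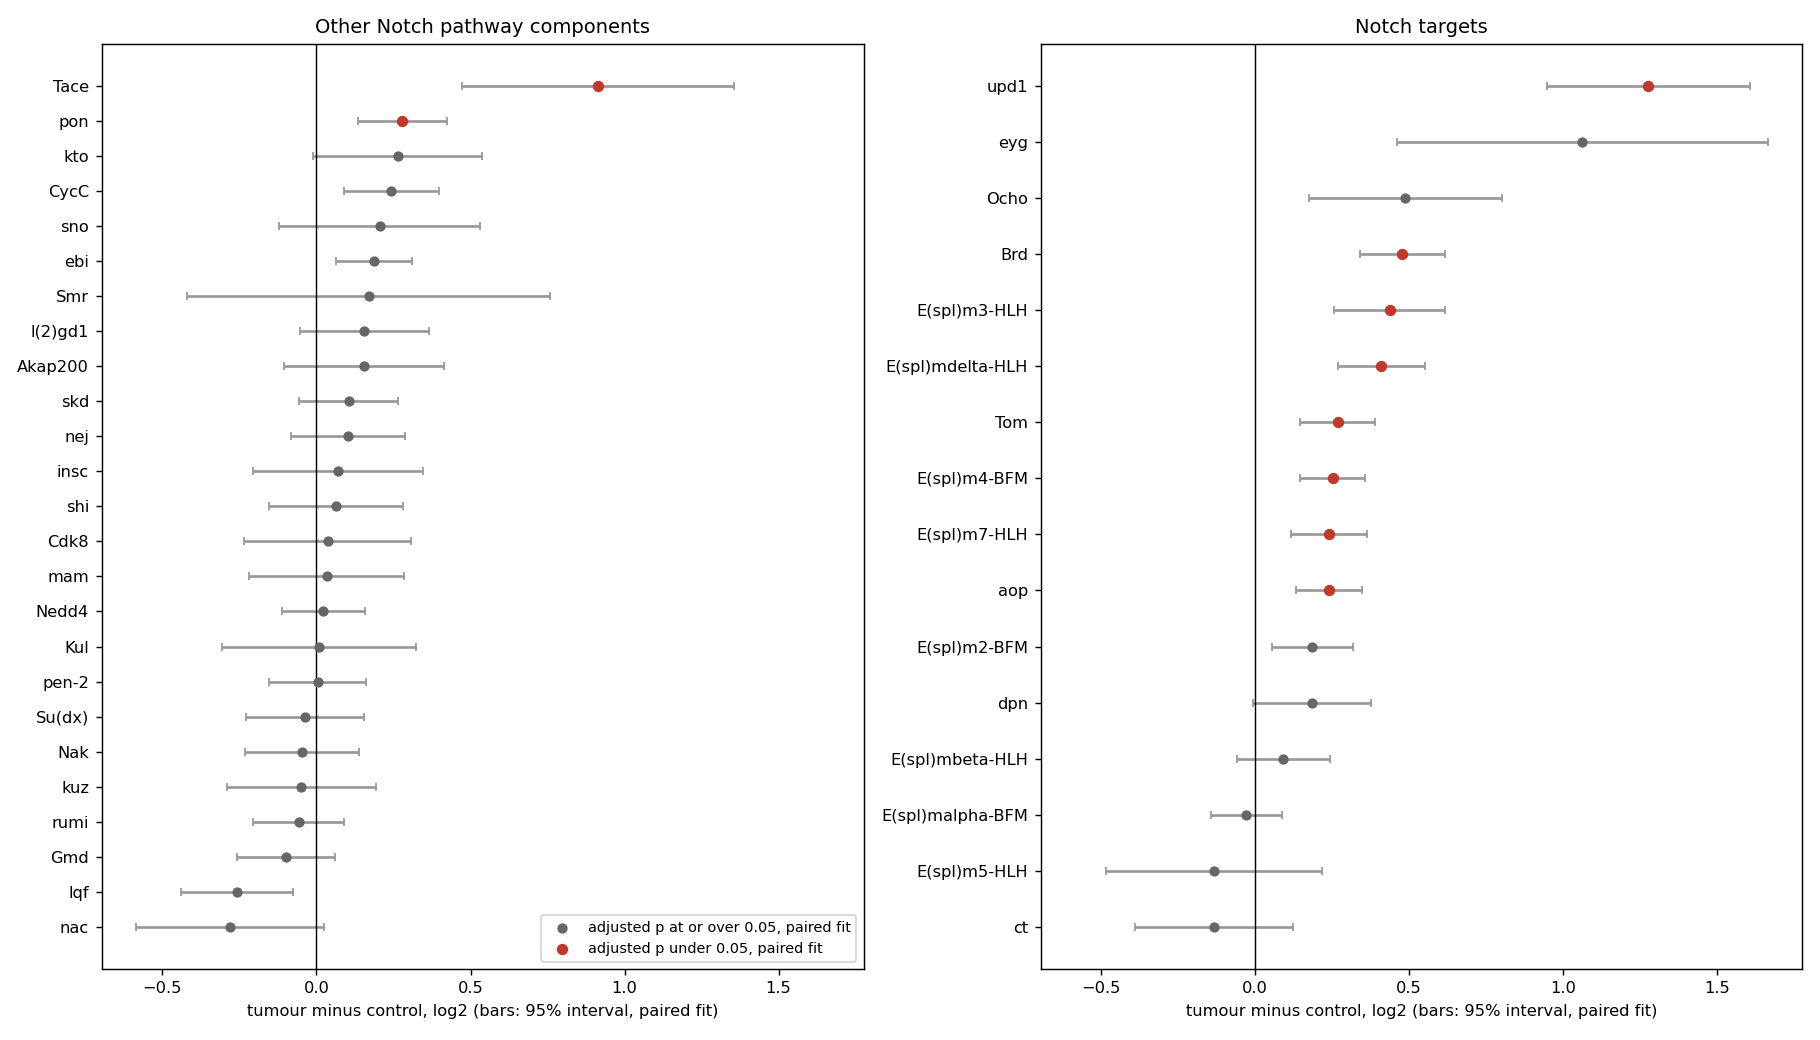
Tumour minus control on the log2 scale with 95% intervals of the paired fit for 25 other components (left) and 16 targets (right), each on its gene's brightest tested probe set; red points passed an adjusted p of 0.05 in that fit. Red points number 2 on the left, Tace and pon, and 8 on the right.

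Markers of cell types also moved with genotype in the paired fit, where 4.06% of all genes were called higher and 5.38% lower. The unpaired fit, which called 0.512% of all genes, called 1 of all tested markers. This was the muscle gene TpnC73F, which was lower (-0.84, adjusted p = 0.045). In the paired fit, 7 of 9 tested disc identity markers were higher (ey, toy, so, eya, dac, Optix and dan) and 1, Dll, was lower (-0.61, adjusted p = 0.035). The disc marker ss was at -0.51 without a call (adjusted p = 0.063), with all tumour arrays below all controls. Of 7 markers of differentiating retina 4 were higher, with mean levels over that list from 9.52 to 9.98 in tumour and from 9.04 to 9.53 in control. Of 5 tested muscle and myoblast markers 3 were lower (7.35 to 7.55 in tumour, 7.89 to 8.46 in control). Of 8 haemocyte markers 2 were lower, PPO1 (-1.32) and PPO2 (-1.06). The other haemocyte markers were not called, and 1 of them, NimC1, was above 0 (0.04). Mean levels over the haemocyte list were 7.16 to 7.42 in tumour and 7.56 to 8.26 in control. The tumour range was below that of control in both lists. Glial markers went both ways: of 5 tested 1, moody, was lower, 3 were higher in all 3 pairs without a call, the median difference was 0.17, and mean levels overlapped (10.42 to 10.67 against 10.26 to 10.72). The part of these shifts in the target and component values was not tested.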

How the data were processed

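RNA of 6 pools of discs was hybridised to Affymetrix Drosophila Genome 2.0 arrays, with 15 ug of biotin-labelled cRNA each, per the labels' protocols. Values were deposited as log2 intensities, which the authors computed with GCRMA (version not given in the sources used here), per the submitters' processing notes; that the scale is log2 was read from the range of the values. There is no read depth, so 3 arrays per genotype set the precision. The values given first were not normalized further. After 183 control probe sets were set aside, GEO's platform annotation gave 1 gene for 13647 probe sets, several for 402 and none for 4720; symbols were updated through the NCBI table of Release 6 for 13544. Of all 18769 probe sets that were not controls, 7962 reached 4 on at least 3 arrays and were tested; they held 6447 named genes.

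The genotypes were compared with limma (version 3.58.1, R version 4.3.3; lmFit, eBayes with trend), two-sided, at a threshold of 0.05 on p-values adjusted by Benjamini-Hochberg across the 7962 probe sets; the 95% intervals are not adjusted. The unpaired fit was the one designed, and the paired fit was listed with it. The labels number replicates 1 to 3 in both genotypes, and the pairing comes from the data: all 3 same-number correlations lay over 0.1. Tumour replicate 2 correlated more with control replicate 3 (0.668) than with its own number. Tumour replicate 3 and control replicate 2 (0.473) also lay over 0.1. This bound therefore cannot tell the same-number match of replicates 2 and 3 from the swapped match. The labels call the replicates biological, and p-values of the unpaired fit reflect the spread among these pools. Those of the paired fit reflect the spread left after the shift of each replicate number is taken out.

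The 10 genes, the lists of other components, targets and markers, and the tests were chosen with earlier results of these data known. Named genes were all probe sets of the 10 genes, and list genes called in either fit. The genes eyg, lqf, kuz, pen-2, mam, shi, nac, Gmd, rumi, ct, ss, E(spl)malpha-BFM, E(spl)mbeta-HLH and E(spl)m5-HLH were chosen after their values were seen. The fits were tested on simulated data. Alternatives are given at the end.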

Additional observations from a re-analysis of the deposited data

How the results depend on the processing

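Under all 14 alternatives run, 0 of the tested Delta and Notch component probe sets were called, and the smallest of their 181 adjusted p-values was 0.055 (limma; at an unadjusted p under 0.05 the paired fit held 5). The median difference over them stayed above 0, from 0.070 to 0.16 in the alternatives that keep all arrays or drop both replicate 1 arrays, and from 0.054 to 0.21 leaving out 1 array. Signs of single probe sets that no fit called did change. The dimmer CtBP probe set was at -0.032 under ribosomal centring, and with replicates 2 and 3 alone it was at -0.011 and the brighter at -0.0023. Leaving out 1 array gave -0.028 to 0.45 for the brighter Delta probe set, -0.11 to 0.13 for the dimmer, -0.068 to 0.22 for Psn, -0.15 to 0.22 for the brighter CtBP probe set and -0.015 to 0.056 for the dimmer. The other probe sets stayed above 0: neur at 0.15 to 0.42, the brighter H at 0.13 to 0.42 and the dimmer at 0.074 to 0.16, each lowest without tumour replicate 1; fng at 0.054 to 0.39, O-fut1 at 0.085 to 0.42, dx at 0.0023 to 0.25 and numb at 0.068 to 0.16, each lowest without control replicate 1; and gro at 0.12 to 0.28, lowest without tumour replicate 3. The negative values of Psn (-0.068 and -0.025) and the brighter CtBP probe set (-0.15 and -0.052) came without control replicate 1 and without tumour replicate 3. The positive values of the dimmer Delta probe set, 0.080 and 0.13, came without the replicate 2 array of tumour and of control. The median of all tested probe sets moved from 0.051 to -0.075 without control replicate 1 and to 0.15 without tumour replicate 1.

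Counts over all tested probe sets changed with the processing: 41 in the unpaired fit, 730 with the replicate block, 550 with replicates 2 and 3 alone, 216 with quantile normalization, 176 with median centring, 193 with ribosomal centring and 2 with no filter. Leaving out 1 array gave 0 to 19: 19 and 11 with the replicate 1 array of tumour or control left out, 3 with tumour replicate 3 left out, and 0 with tumour replicate 2 or control replicates 2 or 3 left out, when 454, 533 and 467 probe sets had an unadjusted limma p under 0.05. Of other components 2 were called with the replicate block and 2 with replicates 2 and 3 alone, of which 1, pon, was shared. Targets numbered 8 with the replicate block, 7 with replicates 2 and 3 alone, 2 with quantile normalization (Brd and E(spl)m3-HLH), and 1 with median and with ribosomal centring (Brd in each). Leaving out 1 array gave 0 calls in either list. The cause of these changes was not tested. Values near the floor of the scale carry little information about level.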

Other observations

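Several listed genes have probe sets that read differently from one another. For shi, the dynamin gene that endocytosis of Delta and Notch needs, 1628859_at gave 8.15, 8.18 and 8.49 in tumour against 7.51, 8.13 and 7.98 in control without overlap, a difference of 0.40 (limma, adjusted p = 0.14 paired). The other shi probe sets, 1637637_at and 1625442_a_at, were at 0.06 and -0.04. Of listed Notch targets and components, Hey, Hesr, vg, E(spl)m6-BFM, BobA, spdo and wry did not reach the level set for testing, and Hey and Hesr read 2.17 on all 6 arrays, the floor of the scale. Both encode relatives of the Enhancer of split repressors.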
